A study of Mus musculus with 20 samples.

Results

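In the epidermis of adult mice, 46 of the 35080 distinct rows of the expression table had lower signal in imiquimod-injured than in unaffected skin and higher signal in wax-stripped skin than in its comparator. They were chosen by these values: on the log2 scale, after adding 16 to each intensity, the imiquimod response was -1 or lower and the wax response 0.3 or higher, in Grhl3 wild-type (WT) and in Grhl3 conditional knockout (cKO) mice alike. The imiquimod response is injured minus unaffected skin of the same experiment, and the wax response is wax-stripped skin minus unaffected recovery skin, both taken from means of 2 arrays. The imiquimod part of the rule alone held for 1093 rows in both genotypes and the wax part alone for 3041. Meeting the rule in WT mice were 120 rows, in cKO mice 80, and in both 46. The members are numbered here from 1 to 46, in falling order of the smaller of the wax minus imiquimod differences of the genotypes.

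Imiquimod is an immune stimulant that activates a Toll-like receptor and, as a cream, produces psoriasis-like inflammation in mouse skin. Wax stripping is a mechanical injury that pulls off the outermost layers, after which keratinocytes proliferate and rebuild the barrier. Grhl3 is a transcription factor of keratinocyte differentiation and barrier formation, and the keratin 14 promoter is active in basal keratinocytes.

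RNA came from dorsal epidermis of C57B6 mice, separated from the rest of the skin with dispase, and was hybridised to 20 Affymetrix Gene ST arrays. The 10 groups of 2 arrays were Grhl3 WT and Grhl3 cKO mice in each of 5 conditions, and the titles of both genotypes carry Krt14cre. The conditions were wax-stripped skin on day 4 (labelled male), unaffected and injured areas of imiquimod-treated mice on day 4 (labelled female), and unaffected and injured areas of mice recovering from imiquimod on day 8 (labelled male). Replicates are called biological in the labels, and whether injured and unaffected areas came from the same mice is not given in the sources used here. Untouched skin from the wax mice was not analysed here, so wax stripping, day and experiment cannot be told apart in the wax response.

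No gene is named, because the row IDs did not act as gene names. Ranked by mean signal, the 200 rows labelled as ribosomal protein genes, which all cells express, had a median percentile of 55.4, and the 967 labelled as olfactory receptors one of 54.5. For the same reason, markers of the epidermis, the Grhl3 transcript and the sequences of the members could not be read. The median intensity of an array over the distinct rows was 171 to 202, and precision is limited by how few arrays there are. Leaving injured recovery skin aside, a gap of at least 3 (log2) separated female-labelled from male-labelled arrays in 5 rows, by 3.67 to 6.74. None of these rows is a member. The female-labelled arrays are all from imiquimod-treated mice on day 4, so labelled sex and experiment cannot be told apart in these rows. Injured recovery skin is labelled male, yet in each of the 5 rows its 4 arrays were nearer the female-labelled side. These 4 arrays did not enter the rule.

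Some members passed the thresholds by little. The 3 members nearest the imiquimod threshold had responses of -1.02 to -1.0 in the genotype with the smaller change, and the 3 nearest rows outside it had -0.97 to -0.93. At the wax threshold the nearest members had 0.31 to 0.34 and the nearest rows outside had 0.29. Leaving out unaffected imiquimod WT replicate 1 gave 24 rows by the same rule, all 24 of them members, and leaving out wax-stripped cKO replicate 2 gave 30, of which 27 were members. With a pseudocount of 64 in place of 16, which dampens dim rows, 22 rows met the rule.

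As a description of the choice, the imiquimod response of the members had a median of -1.23 in WT mice (range -3.35 to -1.01) and -1.42 in cKO mice (range -2.83 to -1.0), against 0.01 and 0.00 over the 26310 rows that passed a filter on dim signal. The wax response had a median of 0.80 in WT mice (range 0.31 to 2.82) and 0.60 in cKO mice (range 0.34 to 2.52), against -0.07 in each genotype over all rows. The filter removed rows whose mean log2 signal lay under the 25th percentile, and 45 of the 46 members passed it. In limma with Benjamini-Hochberg adjustment, 33 of these 45 were called, that is, passed an adjusted p of 0.05, for the imiquimod response in WT mice, where 20% of all rows passed in this direction, and 41 passed in cKO mice, against 18.5% of all rows. Without injured imiquimod cKO replicate 2, 23 passed in cKO mice. For the wax response 17 members passed in WT mice and 11 in cKO mice, against 10.8% and 12.1% of all rows in this direction. The rule used both contrasts, so nothing is read from these counts.

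**Figure D1:**
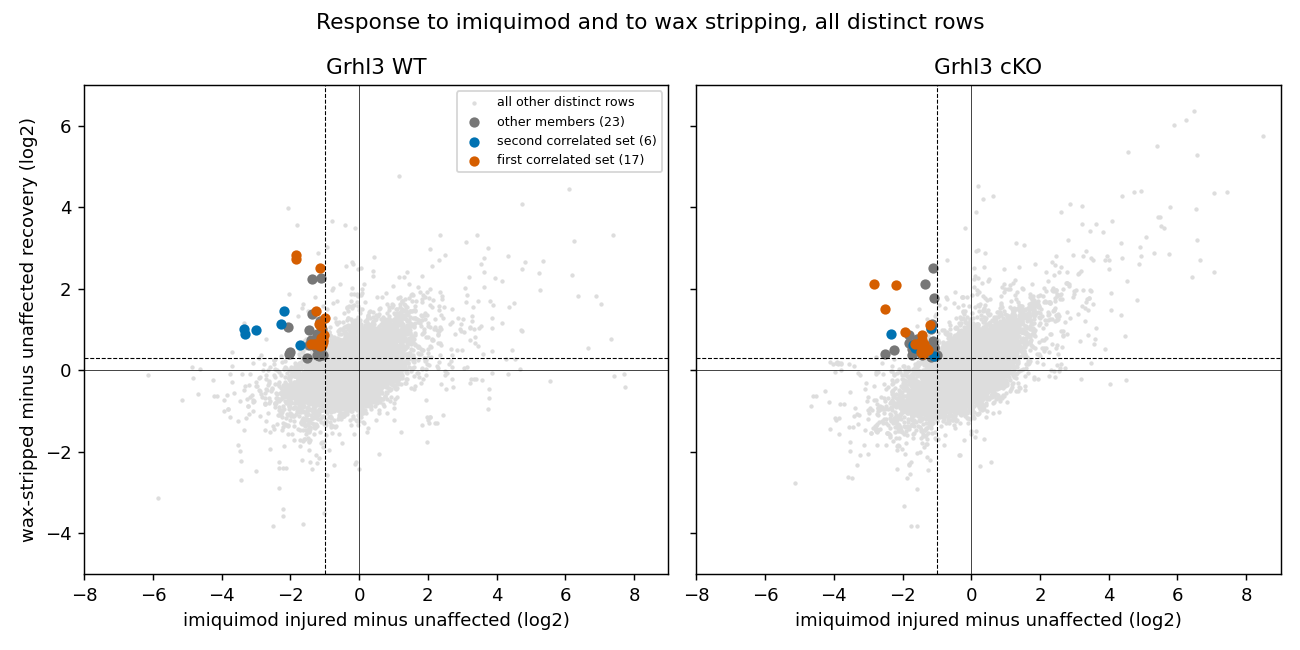
Each point is a distinct row, with its imiquimod response on the x axis and its wax response on the y axis (log2), in WT mice on the left and cKO mice on the right, and dashed lines mark the rule. The 46 members, coloured by the sets described in the text, lie at the upper left, where few of the other rows lie.

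Rows chosen in 1 genotype can be read in the other, since WT and cKO groups share no array. The 120 rows chosen in WT mice alone had a median imiquimod response of -1.10 and a median wax response of 0.38 in cKO mice, and 98 of them (81.7%) had both signs, against 10.7% of all distinct rows. Of the 120, 38.3% met the full rule in cKO mice, against 0.228% of all distinct rows. In the other direction, the 80 rows chosen in cKO mice had medians of -1.10 and 0.73 in WT mice, and 75 (93.8%) had both signs, against 13% of all distinct rows. Rows are not independent replicates, as the next paragraph shows, so these are shares and not a test. The rows that met the rule in both genotypes are the 46 members themselves. Both genotypes share labelled sex, day and experiment within each condition, so agreement between them does not separate these from injury.

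The members did not vary independently of each other. Over the 20 arrays, 71 of the 1035 pairs of members had a correlation of 0.95 or higher, with a median of 0.570 over all pairs and a lowest value of -0.205. Linking pairs at 0.95 or higher gave a first correlated set of 17 members and a second of 6. The other 23 members, 6 of them linked in pairs, are described together. These sets were drawn from the values and are used only to describe them. All 20 arrays entered the correlations, so members of a set move alike in any of these arrays partly by construction. In the first set 8 members lay within 3 rows of another member in the deposited table, and in the second 5 did. The 46 rows are therefore not 46 independent measurements.

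**Figure D2:**
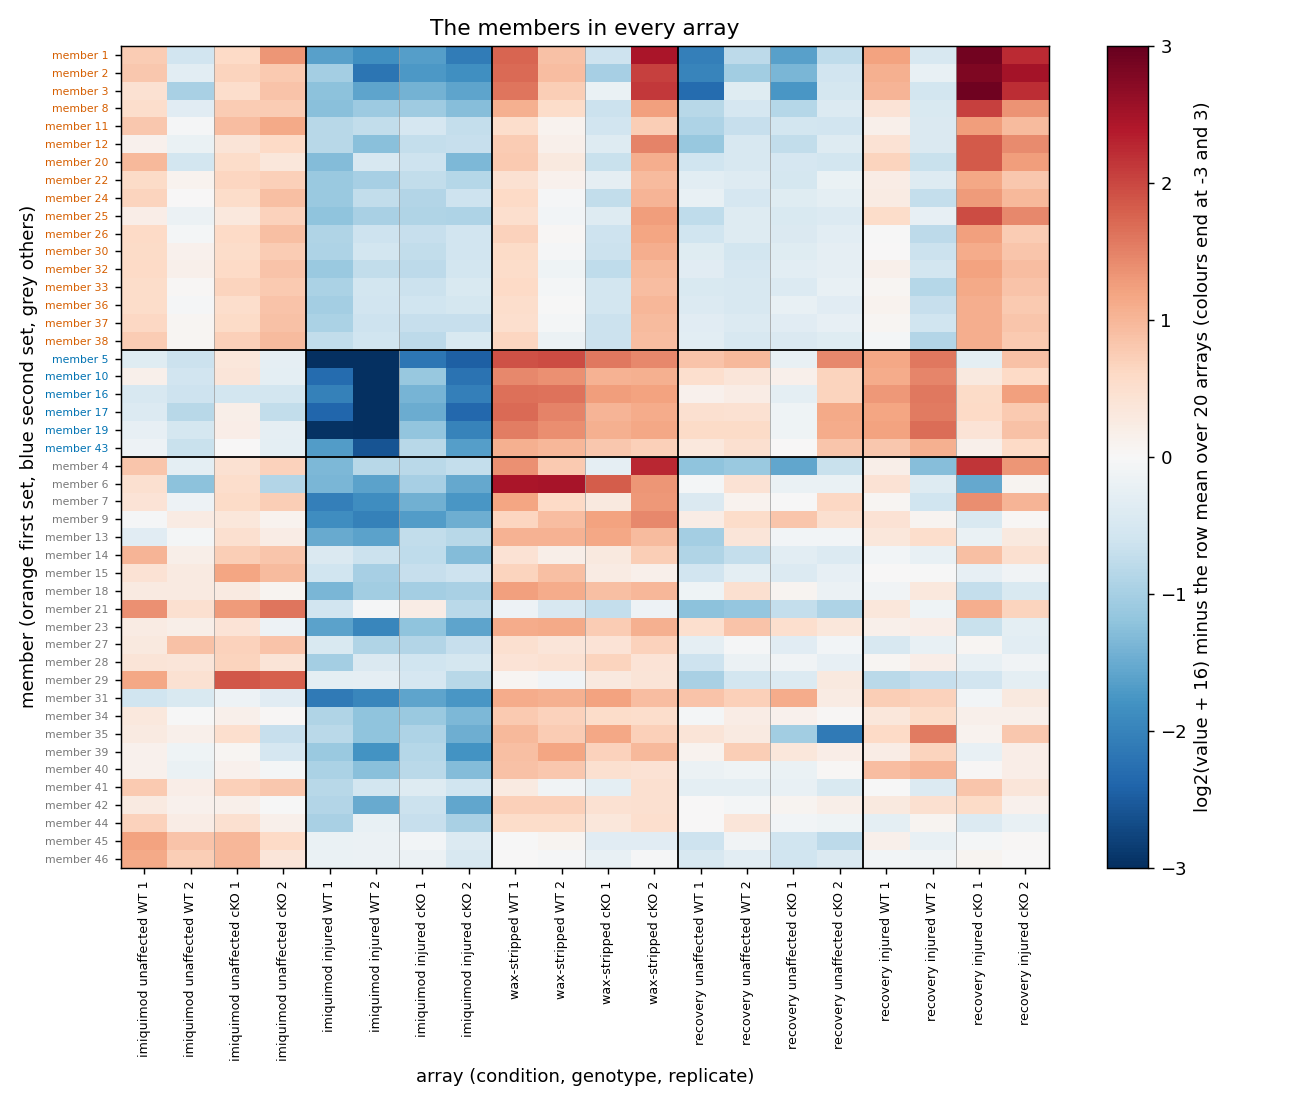
Colours give log2(value + 16) of each member (y axis) in each of the 20 arrays (x axis), minus the mean of that row, with the first set of 17 at the top, the second of 6 below it and the other 23 at the bottom. Injured imiquimod skin is low throughout, and the first set differs between the wax-stripped cKO arrays and is highest in injured recovery skin of cKO mice.

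Member 1, row 10515920, belongs to the first set and had the largest opposite response. In unaffected imiquimod skin it read 524 and 195 intensity units in WT mice and 462 and 776 in cKO mice. In injured imiquimod skin it read 86.1 and 72.1 in WT mice and 85.1 and 58 in cKO mice. All 4 injured arrays lay below all 4 unaffected ones, and in the wax comparison the arrays of the genotypes behaved differently. Unaffected recovery skin read 60.4 and 168 in WT mice and 86.1 and 169 in cKO mice. Wax-stripped skin read 1038 and 564 in WT mice, and 190 and 1698 in cKO mice. The first wax-stripped cKO array was thus close to the higher unaffected recovery array, while the other 3 wax arrays lay well above it.

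Members 2 and 3, also of the first set, likewise had a wide gap between the wax-stripped cKO arrays. Member 2 read 518 and 300 in wax-stripped WT skin and 67.1 and 673 in wax-stripped cKO skin, against 26.2 and 64.1 in unaffected recovery WT skin and 48.3 and 94.9 in unaffected recovery cKO skin. Its first wax-stripped cKO array lay between the unaffected recovery cKO arrays. Member 3 read 1426 and 780 after wax in WT mice, and 397 and 2065 in cKO mice, against 80.1 and 351 in unaffected WT and 125 and 314 in unaffected cKO recovery skin. Member 4, outside both sets, had such a gap too, at 430 and 283 in wax-stripped WT and 129 and 819 in wax-stripped cKO skin. Members 1 and 3 also had the largest mean wax responses of all members, 2.42 and 2.31.

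In the first set the wax response of cKO mice rested on a single array. Every one of its 17 members was higher in wax-stripped cKO replicate 2 than in replicate 1, by 1.22 to 3.06 on the log2 scale, a gap of at least 1 that 0.642% of all rows fitted had between these arrays. Replicate 1 lay below the mean of unaffected recovery skin in 12 of the 17, with a median of -0.14 over the set, while replicate 2 had a median of 1.41. Taken alone, replicate 1 reached the wax threshold in 2 of the 17 members and replicate 2 in all 17. In WT mice the order was the other way, with replicate 1 the higher one in all 17 (medians of 1.08 and 0.49), and the threshold was reached in 17 and 16. Both wax-stripped cKO arrays reached it in 2 of the 17.

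The second set and the remaining members depended less on this array. In the second set, replicate 1 of wax-stripped cKO skin reached the threshold in 6 of 6 members and replicate 2 in 5. Among the other 23, these numbers were 19 and 22. Over all 46 members, both wax-stripped cKO arrays reached the threshold in 25, and in 26 both lay above both unaffected recovery cKO arrays, while in WT mice both wax arrays lay above both unaffected ones in all 46. Of all rows fitted, 25.5% had both wax arrays above both unaffected ones in cKO mice and 28.5% in WT mice. The rule used these arrays, so nothing is read from these counts. The count of 11 called for the wax response in cKO mice became 21 without wax-stripped replicate 1, 3 without replicate 2, and 5 and 7 without unaffected recovery cKO replicates 1 and 2. That of 17 in WT mice became 6 without either wax-stripped array, and 4 and 11 without unaffected recovery WT replicates 1 and 2.

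**Figure D3:**
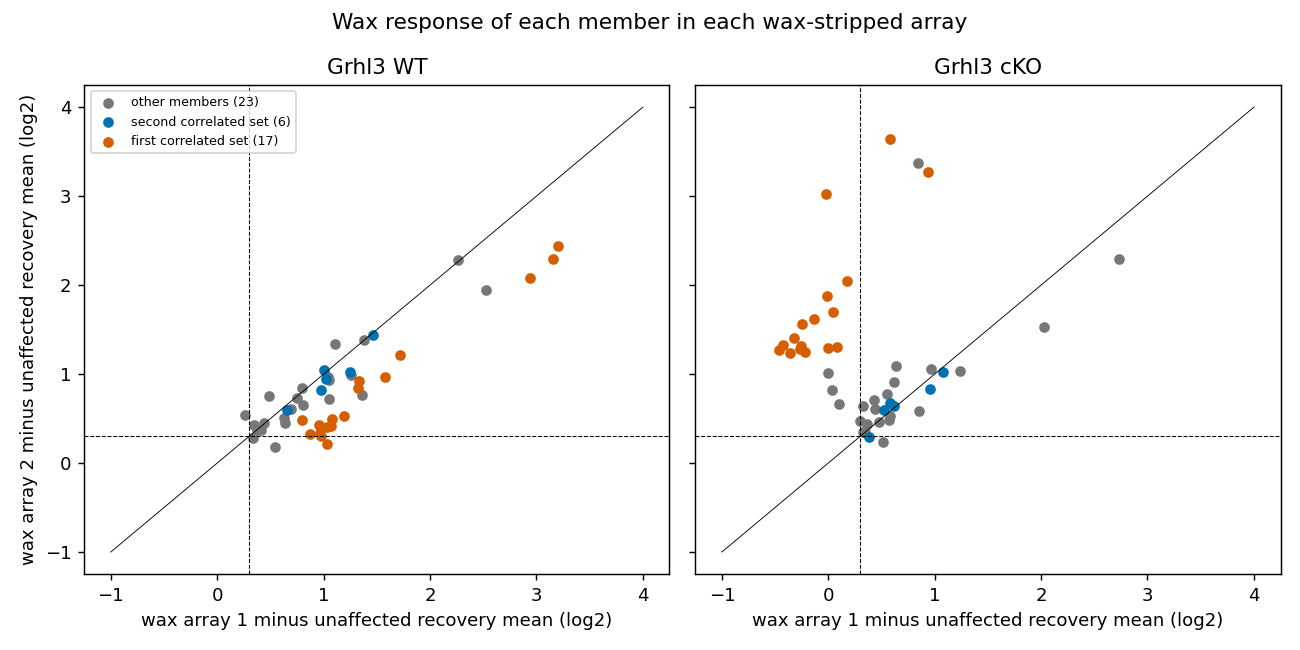
The wax response of each member in wax-stripped array 1 (x axis) and array 2 (y axis), each against the mean of unaffected recovery skin (log2), in WT mice on the left and cKO mice on the right, with the threshold of 0.3 dashed and the line of equal values drawn. The 17 members of the first set lie far above that line in cKO mice, where 2 of them pass the threshold in array 1, and below it in WT mice.

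The second set had the lowest median imiquimod response of the groups of members in both genotypes. Member 5, row 10492846, had the lowest mean imiquimod response, -2.84. It read 942 and 766 in unaffected and 91.2 and 51.2 in injured imiquimod skin of WT mice, and 1533 and 997 against 258 and 208 in cKO mice. After wax it read 4626 and 4760 in WT mice, and 3636 and 3337 in cKO mice, so the wax-stripped replicates were close to each other. Unaffected recovery skin read 2207 and 2397 in WT mice and 1041 and 3316 in cKO mice, and here the wide gap between arrays was in the comparator. Member 19, the next by mean imiquimod response (-2.44), read 4655 and 4195 after wax in WT and 3350 and 3590 in cKO mice. Its unaffected recovery levels were 2359 and 2374 in WT mice and 1444 and 3471 in cKO mice. In all 6 members of the second set the second unaffected recovery cKO array was the higher one, with a median gap of 1.11.

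The median imiquimod response of the second set was -1.59 in cKO and -2.63 in WT mice. In injured imiquimod skin all 6 were higher in cKO than in WT mice, by 0.90 to 2.14. Member 19, with the largest of these differences, read 190 and 54.7 in injured WT and 690 and 387 in injured cKO skin, a difference of 2.14 ± 0.45 (SE; limma adjusted p = 0.114). The arrays of the genotypes did not overlap in 5 of the 6 members, but none of the 6 passed the adjusted threshold. Over all rows fitted, 26.1% had both cKO arrays above both WT arrays in this comparison, 0.137% passed the adjusted threshold in either direction and 0.0760% passed it with the higher level in cKO.

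The unaffected skins themselves differed in the members, as the rule makes likely, since it favours rows that are high in unaffected imiquimod skin and low in unaffected recovery skin. Of 26310 rows fitted, 11824 were higher in unaffected imiquimod than in unaffected recovery skin in WT mice and 11541 in cKO mice. Of the 46 members, 34 were so in WT mice, with a median difference of 0.72, and 35 in cKO mice, with a median of 0.99. All 17 members of the first set were among these in both genotypes, and none of the second set was. Wax-stripped skin exceeded both unaffected skins in 30 members in WT and 23 in cKO mice, against 8149 and 7357 of 26310 rows fitted. In the first set it did so in 8 and 2 of 17, and in the second set in all 6 in both genotypes. For most of the first set in cKO mice, wax-stripped skin was therefore above unaffected recovery skin but not above unaffected imiquimod skin, with a median of -0.46 against the latter. The unaffected imiquimod and unaffected recovery mice differ in labelled sex, day and experiment, which cannot be told apart. In tissue samples, fewer cells of a type and less RNA per cell also cannot be told apart.

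Injured recovery skin, whose 4 arrays had no part in the rule, was set beside wax-stripped and injured imiquimod skin. Its level was nearer to the wax level than to that of injured imiquimod skin in 34 members in WT mice (73.9%, against 58.2% of all rows fitted) and in 35 in cKO mice (76.1%, against 51.5%). In WT mice these were 12 of the first set, 6 of the second and 16 of the other 23. In cKO mice they were 17, 6 and 12, so outside the correlated sets the cKO share was about that of all rows. Injured recovery skin was above injured imiquimod skin in 45 members in WT and in 46 in cKO mice, against 48.4% and 52.1% of all rows. The wax and imiquimod levels come from arrays that the rule did use, and it asks for a low level in injured imiquimod skin. The choice thus favours a level nearer wax, which the shares of all rows do not allow for. No resemblance is read from these counts.

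Against unaffected recovery skin, which the wax part of the rule also used, injured recovery skin was higher in 37 members in WT mice and in 36 in cKO mice, with medians of 0.38 and 0.82. Of all rows fitted, 43.5% in WT and 45.4% in cKO mice were higher. In the 5 rows that parted the labelled sexes, injured recovery arrays lay nearer the female-labelled side, unlike unaffected recovery arrays. Injury therefore cannot be told apart here from a difference of sex, mice or labels. In limma 5 of 45 members rose in WT mice and none fell, against 16.1% and 16.5% of all rows. In cKO mice 25 rose and 4 fell, against 23.5% and 26.3% of all rows. The 5 became 1 without injured WT replicate 1 or unaffected WT replicate 1, and 2 without injured WT replicate 2. The 29 became 13 without injured cKO replicate 1 and 19 without either unaffected cKO array. All 17 members of the first set were higher in injured than unaffected recovery skin in cKO mice, by 1.21 to 3.77, and 16 of 17 in WT mice, by a median of 0.27 over the set. The second set had medians of 0.86 in WT and 0.09 in cKO mice.

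**Figure D4:**
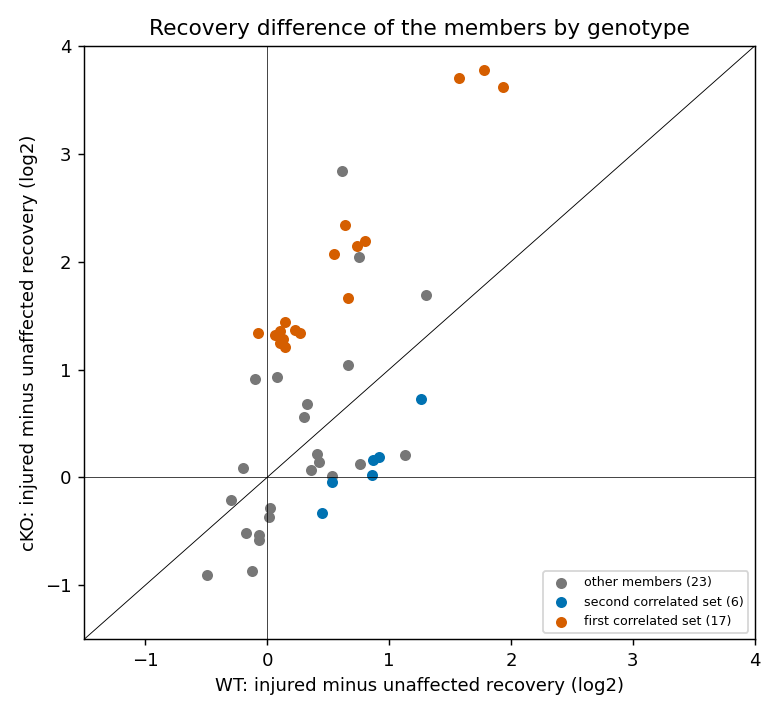
Each point is a member, with injured minus unaffected recovery skin (log2) in WT mice on the x axis and in cKO mice on the y axis, and the line marks equal differences. The first set of 17 lies above the line and the second set of 6 below it.

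In injured recovery skin, a comparison of arrays outside the rule, the first and second sets differed between genotypes in opposite directions. Both cKO arrays lay above both WT arrays in 24 of the 46 members and below both in 16, against 29.7% and 22.8% of all rows fitted. The first set made up 17 of the 24, and the second 6 of the 16. Of the other 23 members 30.4% were above, near the share of all rows, and 43.5% below. The first set was higher in cKO mice in all 17 members without overlap, by 1.06 to 2.33, and the second set lower in all 6 without overlap, with differences of -1.08 to -0.54. The sets were drawn from correlations that included these arrays, so agreement within a set is in part built in. Member 1 read 715 and 212 in WT and 2349 and 1478 in cKO mice, a difference of 2.20 ± 0.83 (SE; limma adjusted p = 0.274). Member 2 read 333 and 126 in WT and 1136 and 918 in cKO mice. Member 5 read 2718 and 3639 in WT and 980 and 2224 in cKO mice, a difference of -1.08 ± 0.45 (SE; limma adjusted p = 0.322). In the first set the injured recovery level of cKO mice was above the means of all 4 other conditions in 17 of 17 members, while in WT mice it was so in 0. Over all rows fitted, 5194 of 26310 had this position in cKO mice and 4450 in WT mice.

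Few of these differences passed the test across all rows. With limma 1 of 45 members was called in injured recovery skin, where 1.0% of all rows were called (0.277% lower in cKO), and 29 of 45 had an unadjusted p under 0.05 (22 higher and 7 lower in cKO), against 13.4% of all rows. All members of the correlated first set were among the 22. The called member 40, row 10374464, read 2467 and 2651 in WT and 1326 and 1500 in cKO mice, a difference of -0.85 ± 0.16 (SE; limma adjusted p = 0.0212). It lost the call without any 1 of the 4 injured recovery arrays (adjusted p = 0.0655 to 0.244) and with only these arrays in the fit (adjusted p = 0.08). The count was also sensitive to the wax-stripped cKO arrays, whose wide gap in the first set enters the shared estimate of spread. Without either of them 15 members were called, 14 higher and 1 lower in cKO, and 12 of the 15 belonged to the first set, while 1.08% of all rows were called. In those fits the remaining wax-stripped cKO array is assumed to vary like the other groups.

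Member 40 was outside both sets and had close replicates. Its wax-stripped arrays read 2404 and 2283 in WT and 1831 and 1766 in cKO mice, so the cKO arrays were the lower ones there too. Unaffected recovery skin read 1140 and 1182 in WT and 1121 and 1327 in cKO mice. Injured recovery skin of WT mice thus had about the level of wax-stripped WT skin, and that of cKO mice stayed near unaffected skin. The imiquimod levels, 663 and 538 in injured WT and 730 and 518 in injured cKO skin, overlapped between genotypes. Members 23 and 9 had the lowest recovery differences, with means over the genotypes of -0.70 and -0.50. Member 23 read 457 and 590 in unaffected and 358 and 369 in injured recovery skin of WT mice, and 461 and 409 against 196 and 256 in cKO mice. In this member, injured recovery skin was below unaffected skin in both genotypes without overlap, although wax-stripped skin was above it at 709 and 714 in WT and 547 and 684 in cKO mice. Member 9 read 303 and 387 in unaffected and 356 and 274 in injured recovery WT skin, which overlapped, and 472 and 370 against 183 and 268 in cKO mice.

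**Figure D5:**
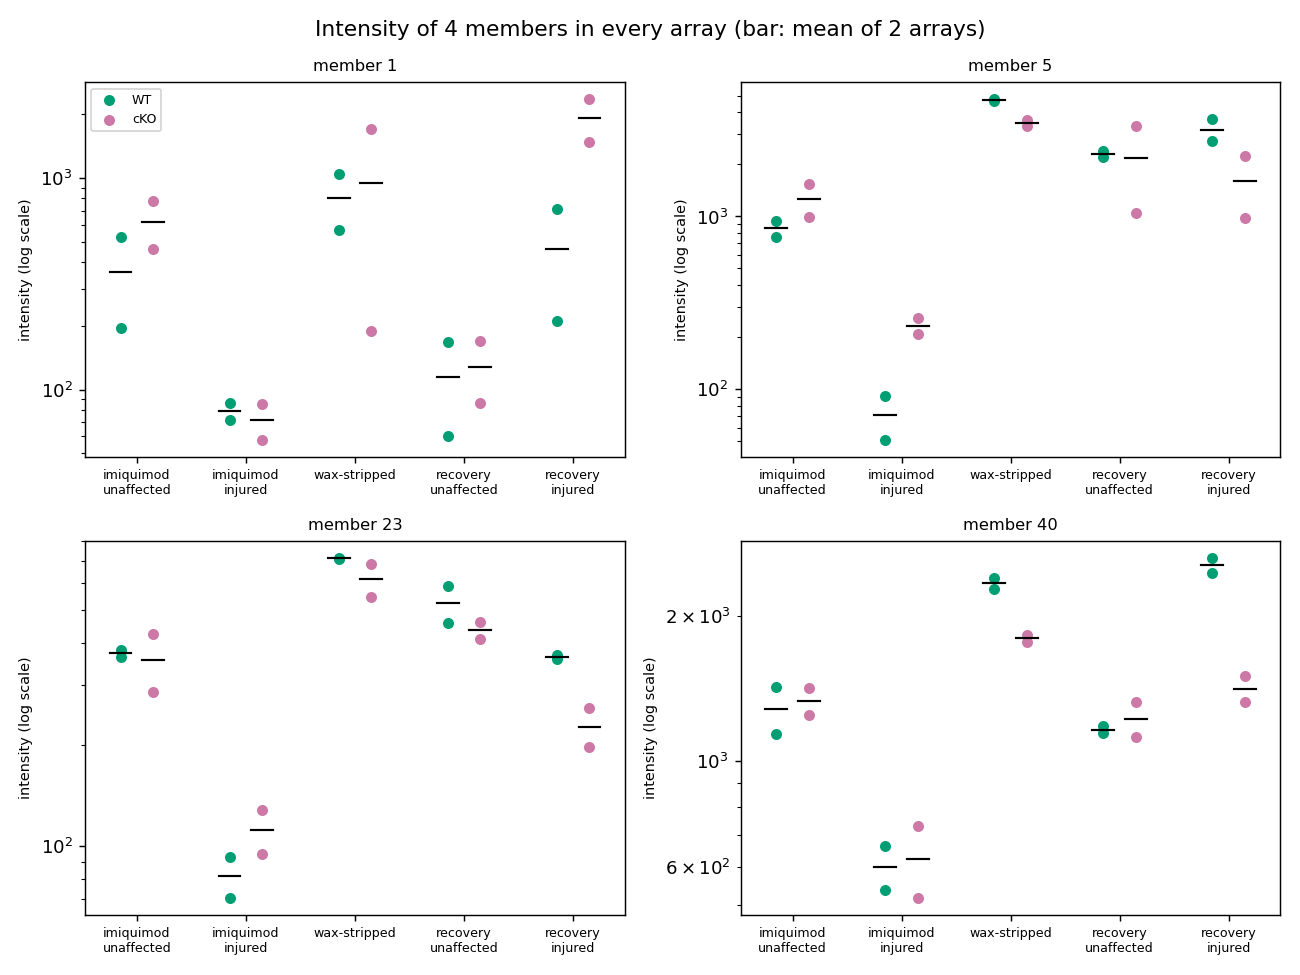
Intensity on a log scale (y axis) of members 1, 5, 23 and 40 in each condition (x axis), with a point per array, WT in green and cKO in pink, and bars at the mean of 2 arrays. Member 1 shows the gap of 190 to 1698 between the wax-stripped cKO arrays, and member 40 the separation of genotypes in injured recovery skin.

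To ask whether the genotype difference of injured recovery skin departs from that of the other conditions, it was tested against the mean of the genotype differences in the 4 others, a contrast added after seeing the data. Among the 45 members 0 were called, against 0.201% of all rows, and 31 had an unadjusted p under 0.05, 21 with the larger and 10 with the smaller value in injured recovery skin, against 8.47% of all rows. All members of the correlated first set were among the 21. The difference between the recovery responses of the genotypes, also added later, called 0 members (0.137% of all rows), and 9 had an unadjusted p under 0.05 (8.84% of all rows). A genotype difference of the members particular to injured recovery skin was therefore not shown at the adjusted threshold.

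In the other conditions limma called none of the 45 members between genotypes. In wax-stripped skin 3 had an unadjusted p under 0.05 (0.270% of all rows called, 6.89% unadjusted), and 34 of the 45 were lower in cKO mice, with a median of -0.12. In unaffected imiquimod skin 2 did (0.00760% called, 9.71% unadjusted), and 35 were higher in cKO mice, with a median of 0.33. Injured imiquimod skin had 7, all higher in cKO (0.137% called, 11.6% unadjusted), with a median of 0.15 over the 45. Unaffected recovery skin had 2 (0.00% called, 3.04% unadjusted), with a median of 0.05. Averaged over the 5 conditions, 0 members were called (1.49% of all rows) and 14 had an unadjusted p under 0.05 (15%). The counts of called members for the average and for injured imiquimod skin changed in some fits that left out a single array. Such a fit leaves 1 array in a group, so nothing is read from those calls. In wax-stripped skin both cKO arrays lay below both WT arrays in 16 of the 46 members and above both in 2. The shares of all rows fitted were 21.2% and 20.3%. All 6 members of the second set were lower without overlap there, as in injured recovery skin. Of the first set, whose wax-stripped cKO arrays lay far apart, 14 of 17 were lower in their means, 0 of them without overlap.

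The responses that define the members were compared between genotypes with interaction contrasts, which the rule does not use. For the imiquimod response 0 of 45 members were called in limma (0.00380% of all rows), and 3 had an unadjusted p under 0.05 (4.19% of all rows). For the wax response 0 were called (0.0494% of all rows) and 2 had an unadjusted p under 0.05 (2.48% of all rows). The wax response was smaller in cKO than in WT means in 35 of the 45, with a median difference of -0.20. In the first set its cKO mean rested on a single array. These tests do not show that the genotypes respond alike, given the replicate spread described next.

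The members varied more between replicate arrays than most rows. The median SD of a member within a group, on the log2 scale, was 0.32 in injured recovery WT and 0.26 in injured recovery cKO skin, against 0.08 and 0.07 over all rows fitted, and these 2 groups had no part in the choice. Among the other groups it lay between 0.14 and 0.33, against 0.07 to 0.13. A gap of at least 1 between replicates was found in 19 of 46 members in wax-stripped cKO skin, 17 of them in the first set, and in 0 to 6 members in the other groups. The first set also moved as a block between replicates elsewhere: all 17 members were higher in replicate 1 than in replicate 2 in unaffected imiquimod WT skin (median of replicate 2 minus replicate 1 -0.64), in wax-stripped WT skin (-0.62) and in injured recovery skin of WT (-0.83) and cKO mice (-0.32). The set was drawn from correlations over these arrays too, so this shared movement is in part built in. With 2 arrays per group, a difference between single mice in the first set cannot be told apart from one between groups.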

How the data were processed

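The authors deposited 1 linear intensity per probe set and array, from Affymetrix Expression Console and PLIER, per the submitters' processing notes. Tool versions were not given in the sources used here. Of 35556 rows, 476 with values identical to an earlier row were removed, which left 35080. PLIER values near 0 are noisy in logs, so log2(value + 16) was used, and a fold change on this scale understates dim rows. Rows with a mean under the 25th percentile were removed before testing (26310 left).

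A group-means model over all 20 arrays was fitted with limma 3.58.1 in R 4.3.3 (lmFit, eBayes without trend), with Benjamini-Hochberg adjustment over all rows fitted and a threshold of 0.05. The p-values set each difference against the spread between replicate arrays, pooled over the 10 groups. The script was first tested on simulated arrays. Errors are limma standard errors. The members and comparisons were chosen with earlier results of these data known. Row IDs are not gene names here, so no gene, marker or sequence is given. Members described singly were the 4 with the largest opposite response, the 2 with the largest mean wax rise, imiquimod fall and recovery difference, the 2 with the smallest recovery difference, and those called between genotypes.

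Other settings tried were quantile normalization, a pseudocount of 1 or 64, a replicate block, leaving out each array, fitting only the compared arrays, a trended robust eBayes, and the filter dropped or raised to the 50th percentile. The fit without the 4 injured recovery arrays and 2 contrasts were added after seeing the data.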

Additional observations from a re-analysis of the deposited data

How the results depend on the processing

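Many of the results counted below are genotype counts of 0 that stayed 0, so the tally says little about them. Of 137 results under alternatives other than leaving out an array, 132 kept their direction and call, stayed within 1.5 times the reported count, or, for a share, within its 95% exact binomial interval. The other 5 were the number of members with a pseudocount of 64 (22 in place of 46), the count of genotype calls in injured recovery skin with only its arrays (0 in place of 1), the call of member 40 in that fit (log2 difference -0.85, limma adjusted p = 0.08), and, with a pseudocount of 1, the shares of rows chosen in WT or cKO mice that met the rule in the other genotype (27.5% and 44.9% in place of 38.3% and 57.5%). Leaving out 1 array at a time gave 24 to 54 members. Counts of called members then ranged from 0 to 15 for the genotype difference in injured recovery skin, 0 to 2 in injured imiquimod skin, 0 to 5 for the average over conditions, and 0 to 1 for injured recovery against the other conditions. For the responses they ranged from 26 to 43 (imiquimod, WT), 23 to 44 (imiquimod, cKO), 4 to 17 (wax, WT), 3 to 21 (wax, cKO), 1 to 7 (recovery, WT) and 13 to 29 (recovery, cKO). The other 6 genotype comparisons (unaffected imiquimod, unaffected recovery and wax-stripped skin, and the differences of the imiquimod, wax and recovery responses) gave 0 in each such fit. Without the injured recovery arrays the wax response called 13 members in WT and 11 in cKO mice.

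With the replicate number as a block the genotype difference in injured recovery skin called 1 member, the imiquimod response 31 in WT and 40 in cKO mice, the wax response 15 and 11, and the recovery response 6 and 28, so no count moved by more than 1.5 times. The other genotype comparisons called 0. The labels do not say that equal numbers mark a shared mouse, batch or day. Differences between replicates 1 and 2 correlated over rows at -0.26 to 0.29 between groups, above 0.1 in 11 of 45 pairs of groups. Whether arrays of equal number share a mouse, batch or day cannot be told from these values. Intensities carry no depth, and 2 arrays per group limit every statement here.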

Other observations

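Rows close to each other in the deposited table resembled each other more often than distant ones. Among the 26310 rows fitted, 1.44% of pairs of adjacent rows had a correlation of 0.95 or higher over the 20 arrays, against 0.293% of pairs 10 rows apart and 0.0356% of pairs 1000 rows apart. Of the 46 members, 15 lay within 3 rows of another member and 21 within 100 rows. What the neighbouring rows share was not tested.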
